A study of Mus musculus with 753 samples.

Results

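The nuclear-encoded genes of the mitochondrial respiratory chain were examined in single keratinocytes of unwounded and wounded mouse skin. The members were chosen by gene symbol alone: the Ndufa, Ndufb, Ndufc, Ndufs, Ndufv and Ndufab genes of complex I, Sdha to Sdhd of complex II, the Uqcr genes and Cyc1 of complex III, and the ubiquitous Cox genes of complex IV. By this rule 67 of 25001 gene entries were members, with 44 in complex I, 4 in complex II, 9 in complex III and 10 in complex IV. Of these, 64 passed the filter on low values and were tested. The other 3 were Uqcr11, which lay under the filter, and Ndufb11b and Ndufs5-ps, which had values in the second batch alone.

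The respiratory chain carries electrons from food molecules to oxygen across the inner mitochondrial membrane. Complex I accepts them from NADH and complex II from succinate, ubiquinone brings them to complex III, and cytochrome c brings them to complex IV, where oxygen is reduced. Complexes I, III and IV pump protons as they work, and the proton gradient drives ATP synthesis. A few subunits of these pumping complexes are encoded in mitochondrial DNA and were not analysed here, and all the others, complex II included, come from the nucleus and are imported. Keratinocytes use both glycolysis and respiration.

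Every cell came from mice carrying 1 copy each of a Gata6-driven tamoxifen-inducible Cre with EGFP (Gata6EFGPCreERT2 in the labels) and of the reporter Rosa26-fl/STOP/fl-tdTomato, treated with topical 4-hydroxytamoxifen, so that cells expressing Gata6 at that time and their progeny were tdTomato-positive. Lin+ cells were the tdTomato-positive and lin- cells the tdTomato-negative epidermal cells, sorted at days 6, 9 and 11 after wounding and from unwounded skin, which is called day 0. Because the Cre is driven by Gata6, lin+ marks descent from Gata6-expressing cells, which normally lie in the sebaceous duct and the upper part of the follicle, and not Gata6 expression at the time of sorting. The cells of wounded and unwounded skin were mixed for sorting with carrier epidermal cells from mice that express eGFP throughout, and eGFP-positive cells were then sorted away. Lin+ and lin- cells of 1 day and replicate came from the same skin, called a mouse set here, and the unwounded skin was taken away from the wound in mice of the late days. Day 6 carries no replicate number, and its cells were kept as 1 set per lineage. The paper lists several mice per replicate at day 6, and 1 mouse per replicate at days 9 and 11. The day 6 mouse set can therefore pool several mice, although the tests treat it like the other sets.

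Each cell was 1 Smart-seq2 library, and 680 annotated cells with at least 200 genes were used. They formed 14 sets of 1 lineage, day and replicate, with 26 to 93 cells and a median between 1806780 and 5972930 reads per cell. Replicate 1 was the first batch, given as read counts, and replicate 2 together with day 6 was the second batch, whose values are RPKM (reads divided by gene length and library size). Each cell was scaled to a total of 1000000 and the cells of a set were averaged, so first-batch levels are CPM (reads of the gene in 1000000 reads) and second-batch levels are TPM (the gene's part in 1000000 after division by gene length). Levels of single genes by set carry 1 more factor per set, which puts the sets of a batch on the scale of their typical gene, as in the tests. Levels are therefore compared between sets of 1 batch and never across batches. Summed keratinocyte markers (Krt5, Krt14 and others, 7 of 7 genes found) lay between 13981 and 49576 CPM or TPM over the sets, against at most 167 for immune markers and at most 22.6 for fibroblast markers, while melanocyte markers reached 3743 in 1 wound set. Since sets and not cells are the unit of every test, p-values measure the spread between these sets.

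Respiratory chain promoters are known for short motifs bound by NRF1, by ETS factors such as GABPA and by YY1, and 4 of them are shown because their genes carry results below. Promoter windows of 300 bases, from 250 bases before to 50 after the RefSeq start in GRCm38.p6, were matched for 50 member genes with 52 promoters. On either strand, the NRF1 letters GCGCATG stood in 10 member genes (19.2% of member promoters, against 3.91% of all 32851 promoters). The ETS letters CCGGAAG stood in 11 member genes (21.2%, against 8.86%), and the YY1 letters AAGATGG in 8 (15.4%, against 6.34%). The NRF1 letters overlap their own reverse where 3 more bases follow, and no motif shares letters with another in the promoters shown. Capitals mark the motif, and a match describes letters only, not binding.
Ndufb8 (NRF1, then YY1 letters, chr19:44555393-44555692, minus strand): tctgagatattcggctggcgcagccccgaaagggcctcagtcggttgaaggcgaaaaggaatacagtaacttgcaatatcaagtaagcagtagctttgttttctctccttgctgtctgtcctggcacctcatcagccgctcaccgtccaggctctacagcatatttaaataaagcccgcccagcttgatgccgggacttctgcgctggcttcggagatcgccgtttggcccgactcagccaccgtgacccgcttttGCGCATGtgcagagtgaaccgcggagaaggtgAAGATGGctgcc
Sdhb (NRF1 letters on the other strand, then ETS letters, chr4:140961021-140961320, plus strand): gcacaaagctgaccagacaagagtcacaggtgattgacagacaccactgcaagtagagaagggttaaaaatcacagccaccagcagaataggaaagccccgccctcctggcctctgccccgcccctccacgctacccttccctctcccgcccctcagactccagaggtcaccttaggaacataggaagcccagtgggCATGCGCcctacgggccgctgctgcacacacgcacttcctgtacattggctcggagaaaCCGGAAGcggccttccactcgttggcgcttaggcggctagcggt
Uqcrc1 (NRF1 letters on both strands, chr9:108936398-108936697, plus strand): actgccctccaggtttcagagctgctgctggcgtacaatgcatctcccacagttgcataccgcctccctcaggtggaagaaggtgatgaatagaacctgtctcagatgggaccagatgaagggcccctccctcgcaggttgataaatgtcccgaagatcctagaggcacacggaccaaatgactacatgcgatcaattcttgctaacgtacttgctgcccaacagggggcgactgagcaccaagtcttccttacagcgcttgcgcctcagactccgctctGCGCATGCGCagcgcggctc
Cox6a1 (NRF1 letters on both strands, then ETS letters on the other strand, chr5:115348909-115349208, minus strand): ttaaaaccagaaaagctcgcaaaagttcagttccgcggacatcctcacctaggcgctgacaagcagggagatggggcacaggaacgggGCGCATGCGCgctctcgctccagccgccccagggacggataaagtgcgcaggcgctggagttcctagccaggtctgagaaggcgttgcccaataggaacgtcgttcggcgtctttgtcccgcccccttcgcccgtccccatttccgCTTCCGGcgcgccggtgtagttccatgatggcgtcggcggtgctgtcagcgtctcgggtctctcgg

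Among members, levels per length differed widely in the second batch. A member's level is here its mean over all cells of that batch, without the set factor, except where sets are named. The median over members of the level was 449 TPM in complex I, 132 in complex II, 489 in complex III and 590.0 in complex IV. The highest member of each complex was Ndufb8 in complex I (1998 TPM), a membrane arm subunit often used as a marker of assembled complex I, Sdhb in complex II (944), which carries the iron-sulfur clusters, Uqcrq in complex III (1773), a small accessory subunit, and Cox4i1 in complex IV (2165), the ubiquitous form of a regulatory subunit. The lowest were Sdhd of complex II (30.5 TPM), a membrane anchor, Cox7a2 of complex IV (155), Uqcr11 of complex III (0.158) and Ndufb11b of complex I (0.00467). Reads of Uqcr11 were found in 32 of 680 cells (4.71%), and the part of the read counting in its low value was not tested. The complex II subunits thus spanned a wide range of RNA levels although the assembled complex holds them in equal number. Sdhd lay between 10.1 and 48.5 TPM in the 8 sets, all below the lowest set of Sdhb (862). The core subunits of complex I differed among themselves, with Ndufs1, an iron-sulfur subunit that takes electrons from the NADH site, at 50.4 TPM, Ndufv1, which binds NADH, at 152 and Ndufs8, another iron-sulfur subunit, at 543.

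**Figure D1:**
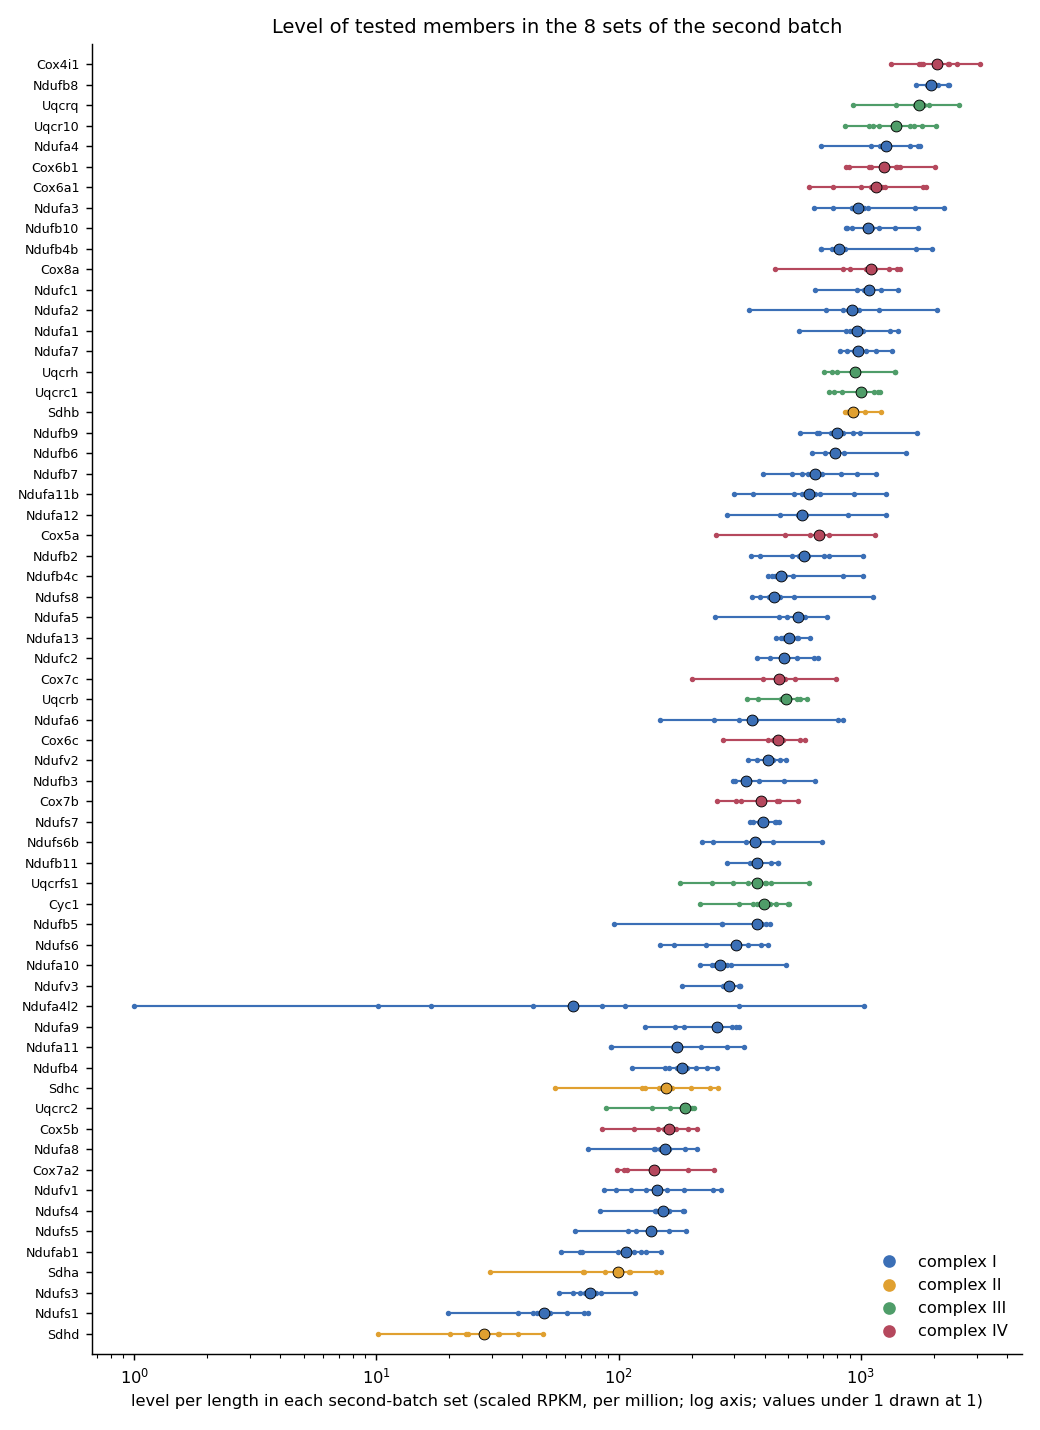
Level of each of 63 of the 64 tested members in the 8 sets of the second batch (TPM, log axis), ordered by mean and coloured by complex, with a line over the range, small points for sets and a large point for their median. Cox4i1, Ndufb8 and Uqcrq stood highest and Sdhd lowest, and Ndufa4l2 had the widest range, up to 1032 TPM.

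Detection differed between members as well. Reads of Cox4i1 were found in 82.6% of the cells, of Ndufb8 in 75.6%, of Sdhd in 36.8% and of Ndufs1 in 22.8%. The share of cells with reads of a member, as the median over the 65 members with values in both batches, was 61.9% over all cells and 62.2% after thinning each cell to 500000 reads. By set it was 38.3, 83.3 and 75.0% at days 0, 9 and 11 in lin+ cells of the first batch, against 37.0, 81.5 and 57.7% in lin- cells. In the second batch it was 56.5, 60.2, 81.8 and 87.2% at days 0, 6, 9 and 11 in lin+ cells, against 39.6, 53.3, 81.8 and 78.3% in lin- cells. Every wound set lay above the unwounded sets of its own lineage and batch. The median number of genes per cell lay between 1776 and 2308 in the unwounded sets and between 1944 and 3282 in the wound sets. It was also higher in each wound set than in the unwounded set of its lineage and batch, except in lin+ cells of the second batch at day 6, with 2089 genes against 2308 in unwounded cells. Its part in the shares was not tested.

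Summed over the members in each cell, respiratory chain RNA took a larger part of the cell's total in every wound set than in the unwounded sets of its batch. In the first batch the mean sum was 15907, 23827 and 19488 CPM at days 0, 9 and 11 in lin+ cells, against 14599, 24853 and 17506 in lin- cells. In the second batch it was 30399.9, 47024, 39579.5 and 42971 TPM at days 0, 6, 9 and 11 in lin+ cells, against 28582, 44419.8, 42476 and 41467 in lin- cells. The highest sums were those of day 6 in both lineages, and the day 11 sets of the first batch were the wound sets nearest to unwounded skin.

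The late wounds (days 9 and 11 together) stood at 1.40 times the unwounded level in the first batch and 1.41 times in the second, with an SD over the 4 late wound sets of 0.229 and 0.0508 on that ratio. These sums are a description and carry no test. By complex in the second batch, the late wound to unwounded ratio was 1.31 for complex I, 0.866 for II, 1.46 for III and 1.55 for IV in lin+ cells, and 1.44, 1.18, 1.39 and 1.74 for complexes I to IV in lin- cells. In the first batch it was 1.16, 1.58, 2.36 and 1.22 for complexes I to IV in lin+ cells, whereas lin- cells had 1.40, 2.16, 1.65 and 1.32. For complex II the sets of the second batch overlapped, with 1089 to 1517 TPM in the wound sets and 1248 to 1333 in the unwounded sets, and those of the first batch did not, with 961 to 1223 CPM in the wound sets and 507 to 725 in the unwounded sets. Complex IV of the second batch had 8080.0 to 10089.9 TPM in wounds and 4748 to 5763 in unwounded skin. In the first batch complex IV overlapped (3935 to 6380.0 CPM in wounds, 3757 to 4432 in unwounded skin), and complex III stood furthest apart (3995 to 5204 CPM in wounds, 2201 to 2620.4 in unwounded skin).

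A sum per cell total moves with everything else in the total. Ribosomal RNA took a median of 22.8% of the reads in lin+ and 28.5% in lin- unwounded cells of the first batch, against 11.8 to 14.7% in its wound sets, and at most 0.0704% of the values in the second batch. With ribosomal RNA left out of the total, the first-batch ratio was 1.17. With sets scaled by their typical gene, as in the tests, the second-batch ratio was 1.28. On that scale, day 11 of the first batch stood at 1.02 (lin+) and 1.07 (lin-) times the unwounded sum of its lineage. Split into complexes I to IV, the lin+ ratios at this day were 0.85, 1.35, 1.97 and 0.83. Their lin- counterparts were 0.99, 1.69, 1.35 and 0.93, so complexes I and IV lay below unwounded skin there. Within the interfollicular basal identity alone (IFE-B), the late wound ratio per cell total was 1.47 in the first batch and 1.40 in the second. Fewer expressing cells and less RNA per cell cannot be told apart in a mean over the cells of a set.

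**Figure D2:**
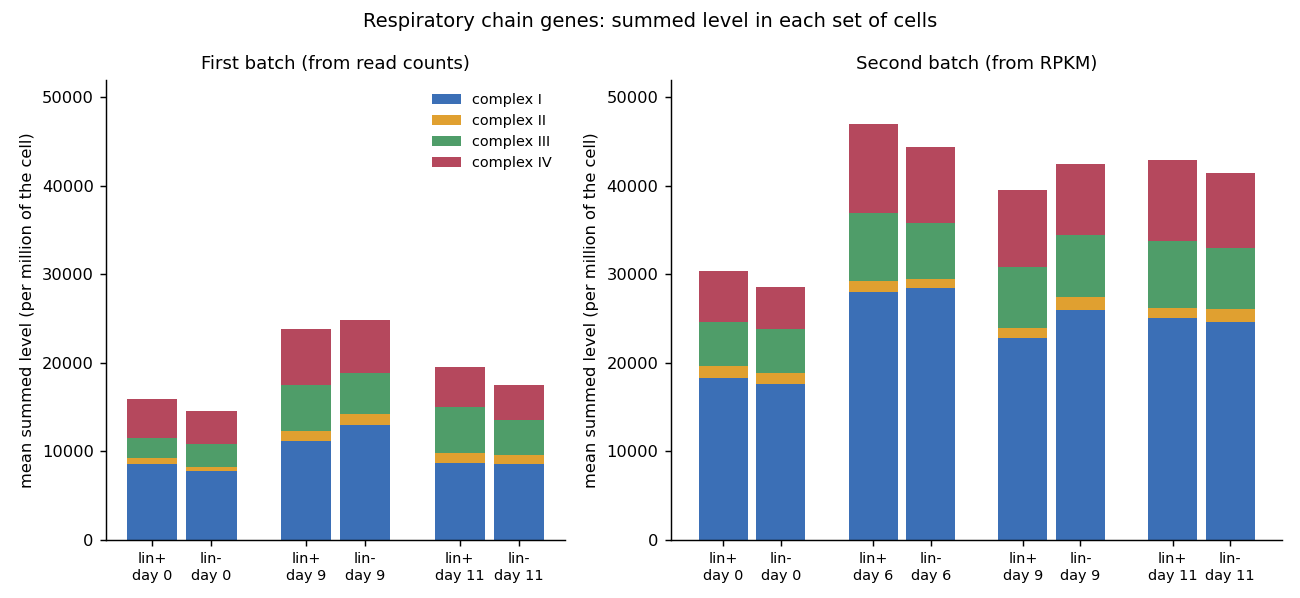
Mean summed level of the members in each set of cells (CPM in the first batch, TPM in the second), stacked by complex, with the first batch (read counts) on the left and the second batch (RPKM) on the right. In both panels every wound bar stands above both day 0 bars, and the day 6 bars, at 47024 in lin+ and 44419.8 in lin-, are the tallest.

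The late wounds were set against unwounded skin, since Gata6-lineage cells take part in the repaired epidermis at these days. In lin+ cells, 42 of 64 members had a positive log2 fold change (all genes tested, 55.7%), and the median over members was 0.33, beside 0.15 over all 10627 genes tested. No member passed an adjusted p of 0.05 in limma with Benjamini-Hochberg adjustment, where 0.0941% of all genes did. At an unadjusted p under 0.05, 5 members were higher (7.2% of all genes) and 0 lower, and edgeR on the reads called 0 members here and in each of the other 8 comparisons. In both batches separately, 30 of 64 members were above 0 (30.3% of all genes). Within a batch the median over members was 0.21 in the first and 0.39 in the second. By complex the fitted median was 0.18 for complex I, 0.41 for complex II, 0.76 for complex III and 0.49 for complex IV. The median over members was 0.20 without day 0 replicate 2 and 0.18 without day 11 replicate 2. In IFE-B cells alone the direction beside all genes turned, with 0.34 over members and 0.39 over all genes.

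Ndufv1, the NADH-binding subunit of complex I, had 199.7, 258 and 356 CPM at days 0, 9 and 11 in lin+ cells of the first batch and 86.9, 129.5, 265 and 244 TPM at days 0, 6, 9 and 11 in the second. Its fitted late wound change in lin+ cells was 1.07 (SE 0.41, adjusted p = 0.408 in limma), with no overlap between wound and unwounded lin+ sets. Ndufs1, its neighbour in the NADH-oxidising arm, had late wound sets below unwounded lin+ cells in the first batch and above them in the second, with 72.6, 13.9 and 26.2 CPM at days 0, 9 and 11 in the first and 19.7, 44.3, 45.9 and 71.8 TPM at days 0, 6, 9 and 11 in the second.

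Complex III held 3 of the 5 members below an unadjusted p of 0.05 in lin+ cells. Uqcrc1, a core protein of the complex on the matrix side, had 565, 1997 and 2318 CPM at days 0, 9 and 11 of the first batch and 772, 983, 1179 and 1129.8 TPM at days 0, 6, 9 and 11 of the second. Uqcrfs1, the Rieske iron-sulfur protein, had 78.0, 299 and 211 CPM at days 0, 9 and 11 of the first batch and 243, 609, 425 and 400.4 TPM at days 0, 6, 9 and 11 of the second. Every wound set of lin+ cells lay above unwounded lin+ cells for both genes. The fitted late wound changes were 1.25 (SE 0.35, adjusted p = 0.265) for Uqcrc1 and 1.22 (SE 0.39, adjusted p = 0.332) for Uqcrfs1 in limma. In lin- cells the wound sets of Uqcrc1 lay above unwounded cells in the first batch and below them in the second, with 1167, 1526 and 1781 CPM at days 0, 9 and 11 of the first batch and 1194, 739.9, 1014 and 832 TPM at days 0, 6, 9 and 11 of the second.

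In lin- cells, 48 of 64 members had a positive log2 fold change in late wounds against unwounded skin (53.4% of all genes), with a median of 0.24 over members and 0.11 over all genes. No member passed the adjusted threshold in limma (0.0376% of all genes did), and 8 were higher and 0 lower at an unadjusted p under 0.05 (8.34% of all genes higher). The median was 0.26 in the first batch and 0.39 in the second. In both batches, 34 of 64 were above 0 (28% of all genes). The median over members was 0.46 without day 0 replicate 1, 0.44 without day 11 replicate 1, 0.43 without the scaling of sets and 0.11 in edgeR, and it stayed above that of all genes by 0.07 to 0.32 over the settings tried. The smallest adjusted p belonged to Cyc1, cytochrome c1, the heme protein that hands electrons to cytochrome c. Cyc1 had 136, 779 and 426 CPM at days 0, 9 and 11 of the first batch and 216, 314, 447 and 422 TPM at days 0, 6, 9 and 11 of the second in lin- cells, with every wound set above the unwounded set (log2 fold change 1.54, SE 0.38, adjusted p = 0.158 in limma). In lin+ cells the change of Cyc1 was 0.79 (SE 0.38, adjusted p = 0.516 in limma), and the difference between the lineages was -0.75 (SE 0.54, adjusted p = 0.800 in limma).

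Uqcrq had 340.3, 814 and 440.3 CPM at days 0, 9 and 11 of the first batch and 931, 1913, 1754 and 1664 TPM at days 0, 6, 9 and 11 of the second in lin- cells. All of its lin- wound sets lay above the unwounded ones (log2 fold change 0.84, SE 0.31, adjusted p = 0.292 in limma). Uqcrq overlaps Gdf9. Ndufb5, an accessory subunit of the membrane arm of complex I, was chosen after its values were seen, since it was low in unwounded lin- cells of both batches. It had 43.9, 233 and 77.9 CPM at days 0, 9 and 11 of the first batch and 95.6, 391, 268 and 268 TPM at days 0, 6, 9 and 11 of the second (log2 fold change 1.54, SE 0.45, adjusted p = 0.180 in limma).

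For complex II the batches parted. Sdhb in lin- cells had 153, 558 and 419 CPM at days 0, 9 and 11 of the first batch, and 932, 875, 937 and 918 TPM at days 0, 6, 9 and 11 of the second, where the wound sets stood on both sides of the unwounded one. Its fitted late wound change was 0.82 (SE 0.43, adjusted p = 0.446 in limma), made of 1.65 in the first batch and -0.01 in the second. Sdha, the flavoprotein that oxidises succinate, had wound sets below unwounded lin- cells in the first batch and above them in the second, with 170.4, 162 and 164 CPM at days 0, 9 and 11 of the first batch and 29.3, 70.9, 149.9 and 142 TPM at days 0, 6, 9 and 11 of the second (log2 fold change 1.11, SE 0.56, adjusted p = 0.426 in limma). The difference between the lineages in the late wound change was tested as an interaction. The median over members was -0.01, beside 0.05 over all genes, with 32 of 64 members positive (51.4% of all genes). No member passed the adjusted threshold in limma (0.0188% of all genes did), and 1 was higher and 2 were lower at an unadjusted p under 0.05, where 3.67% of all genes were higher and 3.57% lower.

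The count of 0 members called depended on the unwounded skin of the second batch. Without that mouse set (day 0 replicate 2), 1 unwounded set per lineage is left. In that fit some members were called higher, Ndufa4l2 and Uqcrc1 among them in lin+ late wounds, and Cyc1 and Sdhb in lin- late wounds. Ndufb3 was also called, between lin+ and lin- unwounded cells. Far more genes were called there over all genes too, so these calls are not read as a result about the members. The lone unwounded set is then taken to vary like the others. Without any other mouse set no member was called.

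Against unwounded skin, the members had larger medians at day 6 than in the late wounds. In lin+ cells 56 of 64 members had a positive log2 fold change (53.3% of all genes) and the median was 0.71, beside 0.11 over all genes. In lin- cells 57 of 64 were positive (53.2% of all genes) and the median was 0.73, beside 0.12 over all genes. Both contrasts share a batch and rest on 1 day 6 set per lineage. No member passed the adjusted threshold in limma in either lineage, where 0% of all genes did in lin+ cells and 0.0188% in lin- cells. At an unadjusted p under 0.05, 12 members were higher in lin+ (3.1% of all genes) and 11 in lin- cells (4.42% of all genes), and 0 were lower in either. Within the second batch alone the median was 0.81 in lin+ and 0.80 in lin- cells.

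All 10 complex IV members were positive in lin+ cells and 9 of 10 in lin- cells, with medians of 0.85 and 0.81. Cox6a1, the ubiquitous form of a small subunit, had 768, 1799, 1260.1 and 1099.6 TPM at days 0, 6, 9 and 11 in lin+ cells of the second batch and 613, 1856, 999 and 1218 in lin- cells. Its day 6 change was 1.16 in lin+ cells (SE 0.48, adjusted p = 1.00) and 1.51 in lin- cells (SE 0.48, adjusted p = 0.658) in limma, and day 6 was its highest set in both lineages. Cox8a, the ubiquitous form of the smallest subunit, had 840.1, 1403, 1301 and 1143 at days 0, 6, 9 and 11 in lin+ cells, against 441, 1446, 903 and 1049 in lin- cells, TPM. The day 6 changes of Cox8a were 0.90 (SE 0.51) in lin+ and 1.31 (SE 0.51) in lin- cells, with adjusted p = 1.00 and 0.746 in limma. Cox4i1 had 1764, 3106, 2298 and 2492 in lin+ and 1333, 2319, 1736 and 1803 in lin- cells TPM at days 0, 6, 9 and 11, and its day 6 change in lin- cells was 0.81 (SE 0.39, adjusted p = 0.858 in limma).

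Cox5a, a matrix-side subunit, had 487, 1138, 741 and 676 TPM at days 0, 6, 9 and 11 in lin+ cells of the second batch (log2 fold change 1.09, SE 0.80, adjusted p = 1.00 in limma). In the first batch its wound sets lay below both unwounded sets, with 148, 137 and 103 CPM at days 0, 9 and 11 in lin+ and 290.1, 139 and 81.6 in lin- cells. Cox7a2 had 105, 246, 143 and 143 at days 0, 6, 9 and 11 in lin+ cells of the second batch, TPM (log2 fold change 0.80, SE 0.71, adjusted p = 1.00 in limma), and its lin+ sets of the late days lay below the unwounded set in the first batch (105, 82.3 and 44.5 CPM at days 0, 9 and 11). Uqcrq of complex III had a day 6 change of 1.14 in lin- cells (SE 0.45, adjusted p = 0.749 in limma). Sdhd had 20.1, 48.5, 31.7 and 23.5 TPM at days 0, 6, 9 and 11 in lin- cells (log2 fold change 1.92, SE 1.13, adjusted p = 0.901 in limma).

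In complex I, Ndufb8 had 1890.2, 1951, 1947 and 2079 TPM at days 0, 6, 9 and 11 in lin+ and 1868, 2309, 2295 and 1689 in lin- cells. Its day 6 change was 0.03 (SE 0.40) in lin+ and 0.44 (SE 0.40) in lin- cells, with adjusted p = 1.00 and 0.958 in limma, and the sign of the lin+ value turned without the scaling of sets or without either day 9 mouse set. Ndufa4, named for complex I and since found with complex IV, had 1105, 1718, 1746 and 1601 in lin+ and 683.9, 1264, 1198 and 1285 in lin- cells at the same days, TPM. The day 6 changes of Ndufa4 were 0.56 (SE 0.55) and 0.59 (SE 0.55) in lin+ and lin- cells, with adjusted p = 1.00 and 0.961 in limma, and all of its wound sets lay above both unwounded sets of the batch. Ndufab1, the mitochondrial acyl carrier protein that also sits in complex I, had 70.5, 123, 69.2 and 129.7 in lin+ and 57.7, 116, 149.7 and 99.3 in lin- cells at days 0, 6, 9 and 11, TPM, and its lin+ day 9 set lay below the unwounded one.

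Late wounds were also set against day 6. The members had lower fitted values in the late wounds, with 14 of 64 positive in lin+ cells (52.6% of all genes) and 13 of 64 in lin- cells (50.2% of all genes). The median was -0.38 in lin+ cells, beside 0.06 over all genes, and -0.37 in lin- cells, beside 0.00. No member passed in limma (0.0188% of all genes in lin+ and 0.0188% in lin- cells), and 4 members were lower at an unadjusted p under 0.05 in each lineage (1.25% of all genes in lin+ and 2.45% in lin- cells). The median of lin- cells turned to 0.03 without the scaling of sets, with all genes at 0.36. The genes that passed were Rn18s and Rn45s, the ribosomal RNA entries, in both lineages (Rn45s -3.74 in lin+ and -5.23 in lin- cells), and their part in the members' values was not tested. These comparisons share the day 6 and late wound sets with those against unwounded skin.

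**Figure D3:**
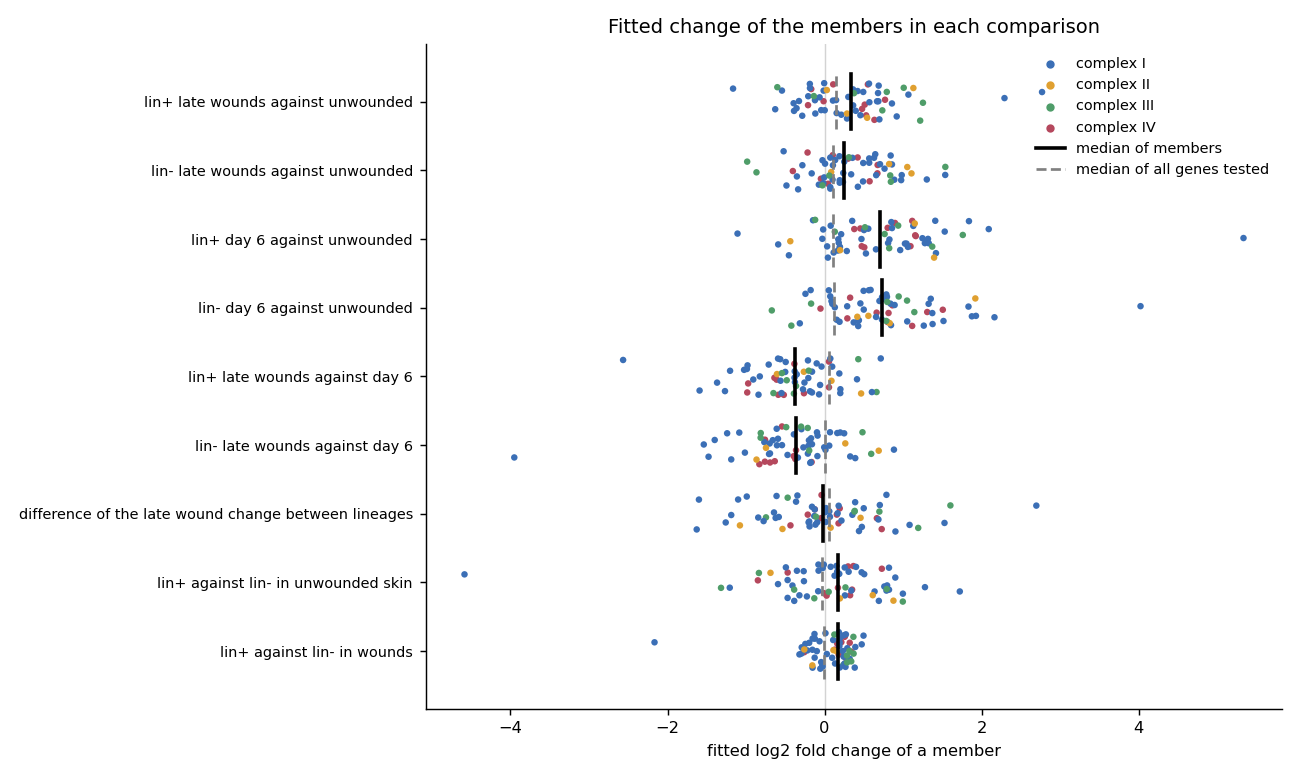
Fitted log2 fold change of each tested member in the 9 comparisons, 1 point per gene coloured by complex, with a black bar at the median of the members and a dashed grey bar at the median of all genes tested. At day 6 the members' medians are 0.71 in lin+ and 0.73 in lin- cells, and the point far to the left in both comparisons of lin+ with lin- cells is Ndufa4l2.

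Sets were also compared without a model. In the second batch, 28 of 64 members had all 6 wound sets above both unwounded sets (11.1% of all genes tested), and 0 had all of them below (7.74%). These were 16 of 42 in complex I, 1 of 4 in complex II, 4 of 8 in complex III and 7 of 10 in complex IV. In the first batch, 10 members had all 4 wound sets above (10.1% of all genes) and 4 all below (10.7%), namely Cox5a, Cox7b, Ndufs4 and Uqcrb. The first-batch share above was near that of all genes. Without day 11 of the first batch the count above was 33, and without day 9 the count below was 17. In both batches, 5 members had every wound set above, among them Cox5b, Ndufb7, Sdhd and Uqcrfs1. The share of all genes was not taken for these last counts, and fewer wound sets make the pattern easier to meet for any gene. They are therefore not read as a result about the members.

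Other mitochondrial genes were described in the same way. Of 16 ATP synthase genes, the next step in the same pathway, 14 were positive at day 6 in lin+ and 15 in lin- cells, with medians of 0.68 and 0.87. Their wound sets all lay above both unwounded sets for 7 of 16 in the second batch and 2 of 16 in the first. Of 77 mitochondrial ribosome genes, which translate the mitochondrially encoded subunits, 56 were positive in lin+ and 61 in lin- cells at day 6 (medians 0.71 and 0.74), with all wound sets above for 14 in the second batch and 18 in the first. The 82 cytosolic ribosomal protein genes, also small and abundant transcripts, had day 6 medians of 0.34 in lin+ and 0.61 in lin- cells, with all wound sets above for 23 and below for 0 in the second batch, and above for 12 and below for 17 in the first.

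The 39 assembly factors of the complexes had day 6 medians of 0.49 in lin+ and 0.60 in lin- cells, the 17 genes of the citrate cycle and pyruvate dehydrogenase 0.27 and 0.51, and the 15 genes for electron carriers (cytochrome c, ubiquinone synthesis and electron transfer flavoprotein) 0.29 and 2.36. Cycs, which encodes cytochrome c, had a day 6 change of 0.02 in lin- cells (SE 0.77, adjusted p = 0.998 in limma), while the ubiquinone synthesis gene Coq9, chosen after its values were seen, had 4.75 (SE 1.23, adjusted p = 0.407 in limma). The 15 glycolysis genes had a median of 1.10 in lin+ late wounds and 0.35 in lin- late wounds, and 0.78 and 0.56 at day 6. The 16 regulators of mitochondrial biogenesis, such as Nrf1, Gabpa and Ppargc1b, had day 6 medians of -0.20 in lin+ and 0.20 in lin- cells. No gene of these lists passed the adjusted threshold of limma in a comparison of wounds with unwounded skin or of late wounds with day 6. Coq2, the transferase of ubiquinone synthesis, was higher in lin+ than in lin- cells of unwounded skin (log2 fold change 4.36, SE 0.77, adjusted p = 0.0434 in limma). Of the ribosomal RNA entries, Rn45s was higher in lin- cells at day 6 (4.13, adjusted p = 0.000335 in limma). Of the other COX genes, Cox6b2 and Cox7a2l were tested, with day 6 values of 0.61 and 0.41 in lin+ and 3.39 and 0.27 in lin- cells.

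Lin+ cells were compared with lin- cells of the same skin, with the mouse set as a block. In unwounded skin 38 of 64 members were higher in lin+ cells (48.4% of all genes), with a median of 0.17 beside -0.03 over all genes, and in wounds 42 of 64 (49.1% of all genes), with a median of 0.17 beside -0.01. In both batches, 25 members were above 0 in unwounded skin (23.3% of all genes) and 32 in wounds (25.8% of all genes). No member passed in limma in either comparison, where 0.499% of all genes passed in unwounded skin and 0.263% in wounds. At an unadjusted p under 0.05, 9 members were higher (7.25% of all genes) and 4 lower (7.98%) in unwounded skin, and 4 higher (3.59%) and 1 lower (3.59%) in wounds. Within a batch the median was 0.17 and 0.28 in unwounded skin (first and second batch) and 0.12 and 0.12 in wounds. All 8 tested complex III genes were positive in wounds, with changes between 0.12 and 0.37.

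Cox4i1 in unwounded skin had 2098 CPM in lin+ and 1009.5 in lin- cells of the first batch, and 1764 and 1333 TPM in the second (log2 fold change 0.73, SE 0.22, adjusted p = 0.165 in limma). Ndufb5 had 111 CPM in lin+ and 43.9 in lin- cells of the first batch, and 422 and 95.6 TPM in the second (log2 fold change 1.72, SE 0.43, adjusted p = 0.114 in limma). Both genes were higher in the lin+ set of either batch. Ndufb5 was chosen for its low values in unwounded lin- cells, so its direction and p-value here are no independent evidence. Ndufa4 in wounds was higher in lin+ than in lin- cells of the same mouse set in 5 of 5 wound mouse sets, with a change of 0.39 (SE 0.16, adjusted p = 0.630 in limma).

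Ndufa4l2 had the smallest adjusted p of the members in both comparisons of lin+ with lin- cells. It is a paralog of Ndufa4 and a known target of hypoxia-inducible factors that lowers complex I activity, and it lies on chromosome 10 (127509274 to 127517154 in GRCm38.p6), overlapping Shmt2. Its level in lin+ cells was 0.0537, 184 and 34.4 CPM at days 0, 9 and 11 of the first batch and 10.1, 106, 44.3 and 0 TPM at days 0, 6, 9 and 11 of the second. In lin- cells it was 20.4, 159.6 and 224 CPM at days 0, 9 and 11 of the first batch and 314, 1032, 85.4 and 16.8 TPM at days 0, 6, 9 and 11 of the second. Lin+ cells lay below lin- cells of the same mouse set everywhere but at day 9 of the first batch, and the highest set was that of lin- cells at day 6. The fitted change of lin+ against lin- cells was -4.59 in unwounded skin (SE 0.92, adjusted p = 0.0605) and -2.17 in wounds (SE 0.58, adjusted p = 0.307) in limma.

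These means rested on few cells. Reads of Ndufa4l2 were found in 80 of 680 cells (11.8%, 95% exact binomial interval 9.44 to 14.4%), among them 59 of 369 IFE-B cells (16.0%, 12.4 to 20.1%) and 5 of 121 outer bulge cells (4.13%, 1.36 to 9.38%). In unwounded skin they were found in 4 of 47 lin+ and 6 of 46 lin- cells of the first batch, and in 1 of 46 lin+ and 8 of 48 lin- cells of the second. At day 6 they were found in 9 of 93 lin+ and 18 of 92 lin- cells, and the top cell held 46.0% of the lin+ sum and 21.3% of the lin- sum. In lin+ cells of day 11, second batch, they were found in 0 of 47 cells, which allows a share of up to 7.55% by the exact interval. The intervals cover counting error only. The day 6 changes against unwounded skin, 5.34 in lin+ cells (SE 2.21, adjusted p = 1.00) and 4.02 in lin- cells (SE 2.21, adjusted p = 0.898) in limma, rest on 1 day 6 set each. Within the second batch, which holds all day 6 cells, the changes were smaller, at 3.27 in lin+ and 1.71 in lin- cells. The fitted values also draw on the first-batch sets through the batch term.

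**Figure D4:**
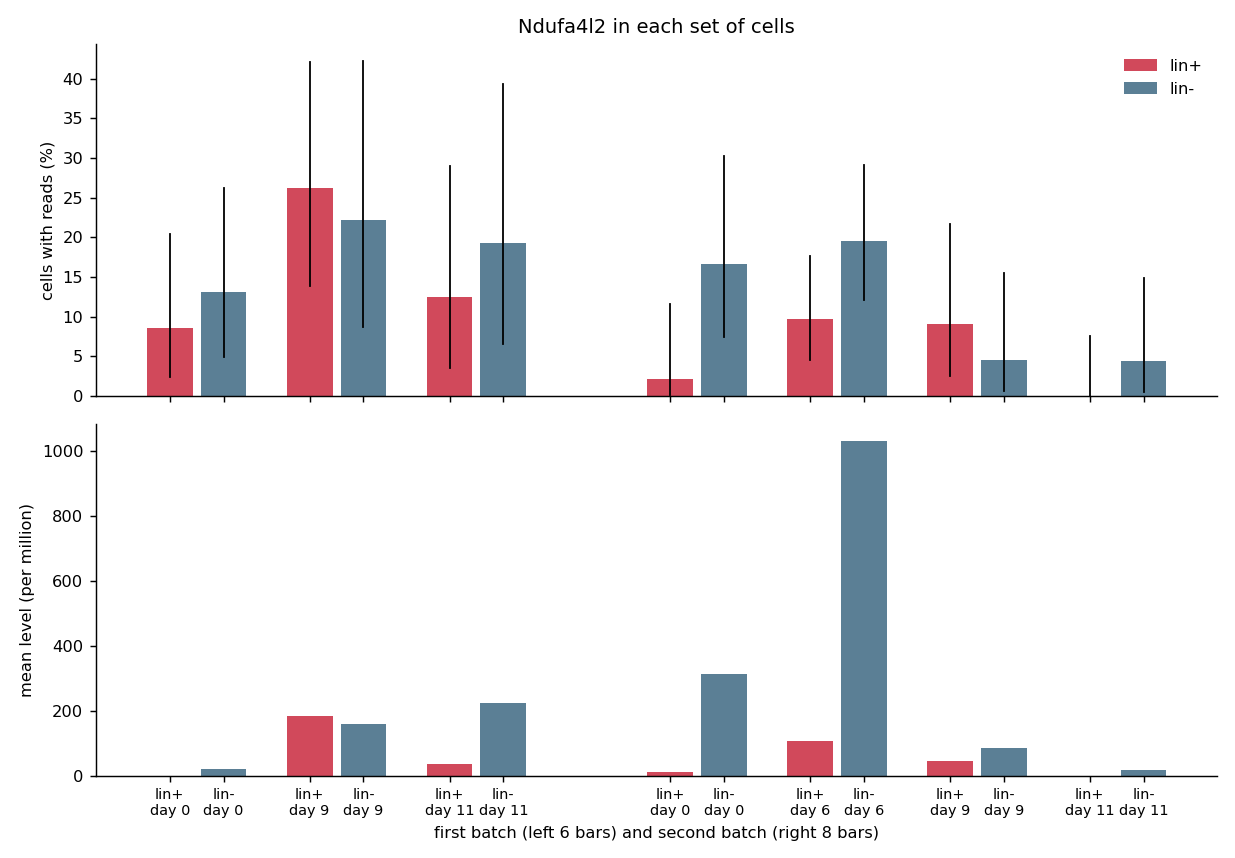
Ndufa4l2 in each set, with the percent of cells with reads above (bars, with 95% exact binomial intervals as lines) and the mean level below (CPM or TPM), lin+ left of lin- at each day, first batch on the left and second batch on the right. The tallest bar below is lin- at day 6 (1032 TPM, 18 of 92 cells with reads).

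Cell identities were those of the annotation, which were made from these same cells, so their values are a description with no test. The 23 cells of the sebaceous gland identity (SG) had the highest mean sum of the members among the annotated identities in either batch. In the second batch the mean sum was 69669 TPM in 16 SG cells (SD over cells 13319.7), 41382 in 229 IFE-B cells (SD 19464), 40899.8 in 79 cells of the upper follicle identity uHF-I and 36769 in 97 outer bulge cells. In the first batch it was 29307 CPM in 7 SG cells and 19454 in 140 IFE-B cells. SG cells stood above IFE-B cells in 10 of 10 sets that held both, at 1.34 to 2.69 times, with 1 to 6 SG cells in each of these sets. They stood higher for 59 of 64 members in the second batch and 48 of 64 in the first, with a median log2 ratio of 0.78 and 0.41, beside -0.46 and -0.92 over all genes tested. The SG means rest on 16 and 7 cells, and the part of genes seen in few cells in the all-gene medians was not tested.

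SG cells also had more genes detected, with a median of 3509.5 genes against 2721 in IFE-B cells of the second batch and 3381 against 2438 in the first, and the part of this in the sums was not tested. By the lower of their log2 ratios in the batches, the members furthest above IFE-B were Ndufs1 (log2 ratio 1.59 in the second batch and 1.89 in the first), Cyc1 (1.46 and 1.40) and Ndufb5 (1.58 and 1.31). The acyl carrier gene Ndufab1 had log2 ratios of 1.82 and 1.04. Ndufa4l2 lay below IFE-B, at -8.79 and -6.82, but these ratios rest on few cells. Its reads were found in 2 of 23 SG cells (8.70%, interval 1.07 to 28.0%). That interval overlaps the one of IFE-B cells (12.4 to 20.1%), so a lower share of SG cells with reads is not shown. The sebaceous gland makes and secretes lipid.

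**Figure D5:**
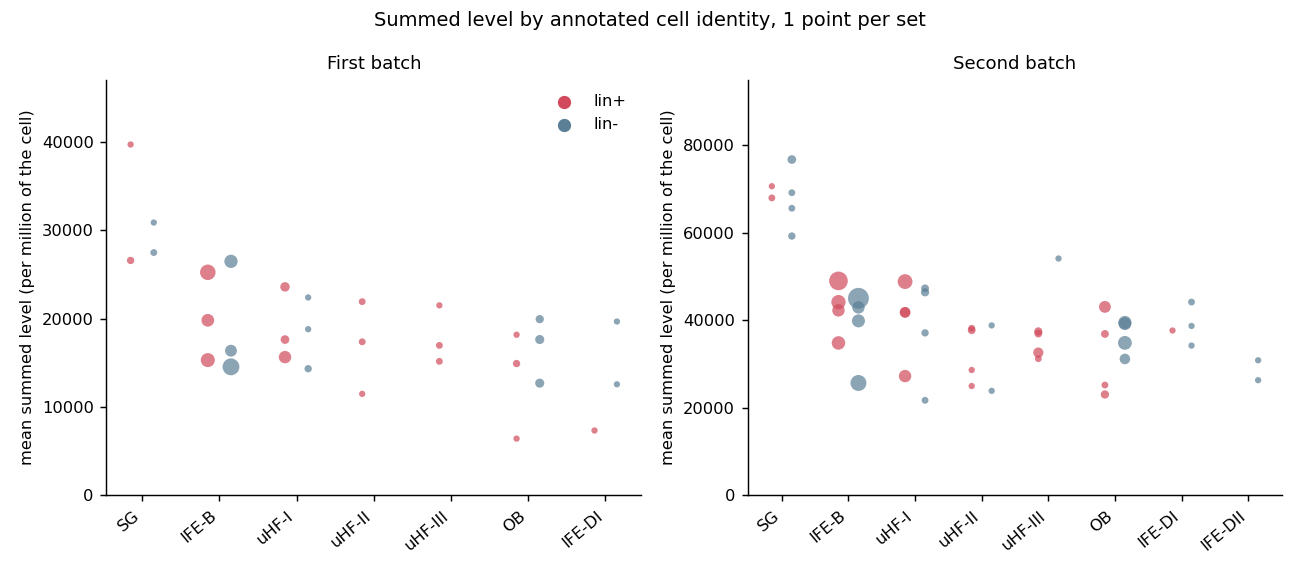
Mean summed level of the members by annotated identity (CPM in the first batch, TPM in the second), 1 point per set, with the point's area growing with the number of cells and lin+ left of lin-. In the second batch the SG points lie between 59281 and 76763, above every IFE-B point.

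Spearman's rho between summed levels was 0.53 for complexes I and IV, 0.47 for I and III and 0.43 for III and IV over 460 cells, and 0.24, 0.30 and 0.18 for complex II with I, III and IV. In the 220 cells of the first batch the same values were 0.57, 0.41, 0.43, 0.33, 0.28 and 0.34. The cells share the cell total as divisor and differ in day and identity, so these are descriptions. The sum over all members correlated with the number of genes per cell at 0.11 in the second batch and 0.32 in the first.

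Some members cannot be told apart by their reads. Over cells of the second batch rho was 0.98 between Ndufa11 and Ndufa11b, 0.97 between Ndufs6 and Ndufs6b, 0.96 between Ndufs5 and Ndufs5-ps and 0.81 to 0.90 among Ndufb4, Ndufb4b and Ndufb4c, beside a median of 0.20 over all pairs of tested members. Reads of near-identical copies can be split between them by the counting, so the separate levels of these genes are uncertain. Counts of members hold each tested copy as its own gene. The 28 members with every second-batch wound set above both unwounded sets include Ndufb4 with Ndufb4c and Ndufs6 with Ndufs6b. Of all 67 members, 22 overlap another RefSeq gene. The counting is not stated to use strand.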

How the data were processed

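The authors sequenced single keratinocytes by Smart-seq2, and the submitters' processing notes name Trimmomatic 0.27, STAR 2.2, featureCounts, Seurat 3.2.2 and GRCm38/mm10. For the first batch the authors deposited read counts per gene, and for the second batch the deposited values are RPKM, a unit read from their steps and gene lengths, with both batches in 1 table. The cell annotation (identity, day, lineage, batch) is also the authors'. Cells with under 200 genes (4 annotated cells) were left out, since a few reads in them weigh as much as a whole cell. No doublet caller was run, because each well was sorted as a single cell. Of per-sample columns, 1048 carried no annotated sample and were not used.

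Each cell was scaled to the same total, CPM for counts and TPM for RPKM, and the cells of a set were averaged. Median-of-ratios factors then put the sets of 1 batch on a common scale, from genes above 5 CPM or TPM in every set of the batch. Genes of at least 10 CPM or TPM in at least 2 sets were tested with limma 3.58.1 (trend) on log2(level + 1), so fold changes of low genes are understated, with Benjamini-Hochberg adjustment over all genes tested and a threshold of 0.05. Day comparisons had a term for each lineage and day and for batch, and lineage comparisons the mouse set as a block, because lin+ and lin- cells came from the same skin. Deviations of lin+ and lin- sets of 1 number correlated at -0.22 to -0.01. After the fit these deviations sum to 0 over the sets of a batch, which pulls such correlations below 0. The check cannot decide on pairing, and the block follows the design. Reads of the second batch were recovered from the RPKM steps (99.7% or more of values in a cell came out whole within 0.02 of a read, below 200 reads), and edgeR 4.0.16, with its own or DESeq2 1.42.0 size factors, was run on reads summed per set. The fits were tested on simulated data.

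The members and gene lists were chosen with earlier results of these data known. Named with values were 16 members fixed by name, the highest and lowest member of each complex per length and any called member, and exceptions are stated, while 1 member that these rules name is not reported here. Overlaps and promoters came from RefSeq on GRCm38.p6. Intervals are exact binomial (95%). The alternatives were a pseudocount of 10, no filter, no median of ratios, a total without ribosomal RNA, recovered reads, edgeR, IFE-B cells alone, cells of at least 500000 reads, no replicate block and each mouse set left out. The design had assumed all annotated cells, which were kept as an alternative.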

Additional observations from a re-analysis of the deposited data

How the results depend on the processing

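Of 158 counts of called members under other settings, 155 were 0. Leaving out each mouse set in turn gave 0 to 3 members in lin+ late wounds against unwounded skin, 0 to 2 in lin- late wounds and 0 to 2 between lineages in unwounded skin, the calls arising without day 0 replicate 2, which leaves 1 unwounded set per lineage. The fit then gave changes of 1.92 for Uqcrc1 in lin+ cells, and 2.09 for Cyc1 and 1.73 for Sdhb in lin- cells, all in limma. It takes the lone unwounded set to vary like the others, and far more genes were called over all genes too. The counts of called members in that fit are therefore not read as a result about the members. Of 507 values of 29 gene comparisons, 503 kept their direction. The exceptions were Sdhb in lin- late wounds, -0.094 without day 0 replicate 1 and 1.73 at most over the sets left out, and Ndufb8 in lin+ cells at day 6, -0.10 without the median of ratios and -0.021 to 0.098 over the sets left out.

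The late wound to unwounded ratio of the summed members was 1.17 in the first batch with ribosomal RNA left out of the total. In the second it was 1.55 on recovered reads, 1.51 with the median over cells, 1.502 with all annotated cells and 1.28 with sets scaled by the median of ratios, the last pair being chosen after seeing the data, as were the counts of sets that do not overlap. Over late mouse sets left out it was 1.21 to 1.60 in the first batch and 1.39 to 1.43 in the second. The share of cells with reads moved by less than the spread between sets. Without the median of ratios, members with every wound set above both unwounded sets numbered 16 in the first batch (25% of members, 11.9% of all genes). In the second batch they numbered 32 (50% of members, 11.1% of all genes). Among the annotated cells otherwise left out, 1 lin- day 11 cell of the second batch had 5 reads, 1 of them of a member (541465 TPM). The cause of the shifts between settings was not tested.

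With no replicate block (no term for batch or mouse set), 0 members were called in each of the 9 comparisons, and the median over members at day 6 was 1.23 in lin+ and 1.32 in lin- cells. It was -0.99 in lin+ and -1.04 in lin- late wounds against day 6. The day 6 sets are in TPM alone, while the unwounded and late wound sets are in CPM and TPM. Without the batch term these day 6 medians therefore mix units and are not read as changes. Without the median of ratios, the median over members was -0.12 in lin+ late wounds against day 6, 0.10 between lineages in unwounded skin and 0.08 in wounds. Over mouse sets left out it was 0.18 to 0.47 in lin+ and 0.18 to 0.46 in lin- late wounds against unwounded skin. In IFE-B cells alone the lin+ late wound median lay -0.05 from that of all genes. The precision is limited by 2 unwounded sets per lineage and 1 day 6 set per lineage, from few mice, by units that differ between the batches and by the low share of cells with reads of members such as Ndufs1, Sdhd and Ndufa4l2. The unwounded skin came from mice of the late days, which the fits do not use as pairs.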
